A study of Drosophila melanogaster with 2 samples.

Results

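The nuclear genome of Drosophila melanogaster encodes the proteins of the mitochondrial ribosome in separate genes, whose symbols start with mRpL for the large subunit and mRpS for the small subunit. All protein-coding genes of the Ensembl annotation of release 115 with such a symbol were taken, which gave 73 of 13968 genes, or 0.523%. Of these, 47 were large-subunit and 26 small-subunit genes. They were examined for binding of a GFP-tagged Hr38 protein by chromatin immunoprecipitation followed by sequencing (ChIP-seq). The material was 1 group of 2 replicates that the labels call biological. Each was made from whole white prepupae of mixed sex, of a transgenic line named Hr38-GFP, in which GFP is fused to the C terminus of Hr38. Chromatin was sheared by sonication and precipitated with an anti-GFP antibody. The age is given as 48 hours without a starting point. A whole animal mixes all tissues, so a region listed at a gene cannot be traced to a tissue, and the tagged protein need not bind as the untagged one does. A control library is named in the labels and was not analysed here, and with 1 group no condition could be compared.

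The mitochondrial ribosome translates the few messenger RNAs of the mitochondrial genome, which encode core subunits of the oxidative phosphorylation complexes. All of its proteins are made in the cytosol from nuclear genes and are imported into the organelle. Its small subunit decodes the messenger RNA, and its large subunit forms the peptide bond and releases the chain through an exit tunnel. Some of its proteins have counterparts in bacterial ribosomes and others are specific to mitochondria. Hr38 is a nuclear receptor and the only Nr4a protein of the fly. Nr4a receptors are transcription factors that as monomers recognise the element known as the NBRE. The white prepupa is the start of metamorphosis.

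The authors' lists on the dm6 build give each region a summit and a score, whose scale is not stated. Of these lists 4 were read, and a region was counted at a gene when its summit lay within 1000 bp of one of the gene's transcription start sites (TSSs). The strictest is the list of 768 peaks that passed the authors' irreproducible discovery rate (IDR) threshold, with scores from 78 to 629. The pooled list held 19279 regions, that of replicate 1 held 30000 and that of replicate 2 held 29031 on the chromosome arms. These 3 longer lists hold background regions by design, so a region in them is not by itself a called binding site. The lists carry no read counts, so the depth behind each score is unknown.

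Few mitochondrial ribosomal protein genes had a thresholded peak, and in the 3 longer lists the share of other genes lay within the members' Wilson interval. A thresholded peak lay at 7 of 73 members, or 9.59% (95% Wilson interval 4.72 to 18.5%), and at 4.71% of the other 13895 protein-coding genes. A pooled region lay at 28 members, or 38.4%, and at 37.9% of the other genes. In replicate 1 a region lay at 28 members, or 38.4%, and at 44.4% of the other genes. In replicate 2 it lay at 44 members, or 60.3%, and at 53.1% of the other genes. The members were above the other genes in the thresholded list and in replicate 2, near them in the pooled list and below them in replicate 1. In the thresholded list the lower bound of the members' interval was at about the share of the other genes. The intervals treat genes as independent and cover counting error only. By subunit, 3 of 26 small-subunit genes (11.5%) and 4 of 47 large-subunit genes (8.51%) had a thresholded peak. In replicate 2 a region lay at 33 large-subunit genes (70.2%) and 11 small-subunit genes (42.3%), whereas in the pooled list the shares were 40.4% and 34.6%.

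**Figure D1:**
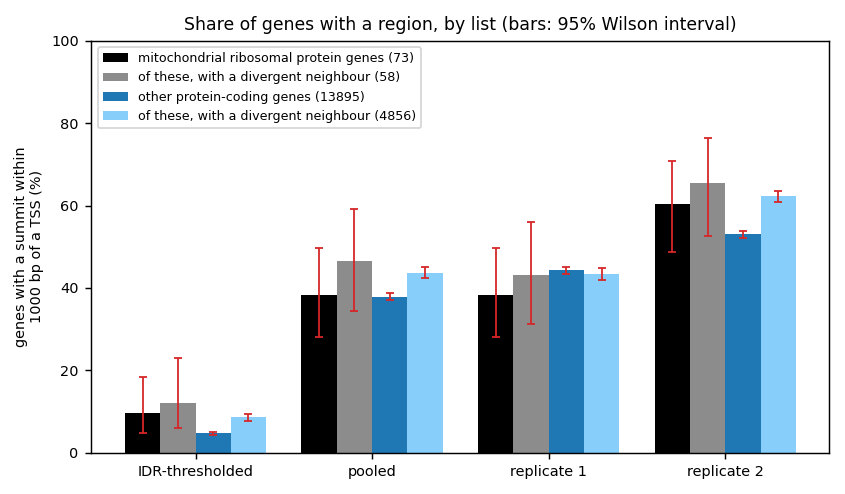
Share of genes, in percent, with the summit of a region within 1000 bp of a TSS in each of the 4 lists, for the 73 mitochondrial ribosomal protein genes and the 13895 other protein-coding genes and for those of each with a divergent neighbour; lines are 95% Wilson intervals over genes. In the thresholded list the shares are 9.59% and 4.71% overall and 12.1% and 8.57% among genes with a divergent neighbour.

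Among the small-subunit genes, mRpS23, mRpS10 and mRpS2 had a thresholded peak, and each peak lay upstream, in the interval that the gene shares with a neighbour transcribed the other way. mRpS23 (FBgn0260407, chr2L:13834250-13835072, minus strand) encodes a protein specific to mitochondrial ribosomes. Its score was 250.3 in replicate 1, 189.7 in replicate 2 and 442 in the pooled list. By best score it ranked 5 among all genes with a region in each of these 3 lists, the highest place of any member. mRpS10 (FBgn0038307, chr3R:15229665-15230516, plus strand), the counterpart of bacterial S10 in the head of the small subunit, had 130.4 in replicate 1, 134 in replicate 2 and 262 in the pooled list. mRpS2 (FBgn0031639, chr2L:4849439-4850419, minus strand), the counterpart of bacterial S2, was lower, with 44.6, 36.8 and 90.04 in the same order. The summits of the replicates lay 14 bp apart at mRpS23, 7 bp apart at mRpS10 and 24 bp apart at mRpS2. All 3 pooled summits were nearer to the start of the neighbour than to that of the member. At mRpS23 the summit was 381 bp from its own TSS and 111 bp from that of CenG1A, an Arf GTPase-activating protein. At mRpS10 the distances were 137 bp and, to Art3, an arginine methyltransferase, 120 bp. At mRpS2 they were 191 bp and, to Mon1, which acts in the activation of Rab7 on endosomes, 31 bp. The DNA under these summits is shown because it holds the highest small-subunit peaks. It is RefSeq sequence of the release 6 assembly, the same build as dm6, read on the strand of the member and towards its start, and capitals mark the 11 bases centred on the pooled summit. The mRpS23 stretch is chr2L:13835353-13835553, minus strand, 201 bases around the summit. The others span the interval between the paired starts, chr3R:15229409-15229664, plus strand, and chr2L:4850420-4850640, minus strand. None overlaps an annotated exon.
mRpS23: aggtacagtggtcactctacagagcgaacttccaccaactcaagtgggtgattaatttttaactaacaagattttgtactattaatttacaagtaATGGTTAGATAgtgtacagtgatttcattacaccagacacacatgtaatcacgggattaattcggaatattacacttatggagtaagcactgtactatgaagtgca
mRpS10: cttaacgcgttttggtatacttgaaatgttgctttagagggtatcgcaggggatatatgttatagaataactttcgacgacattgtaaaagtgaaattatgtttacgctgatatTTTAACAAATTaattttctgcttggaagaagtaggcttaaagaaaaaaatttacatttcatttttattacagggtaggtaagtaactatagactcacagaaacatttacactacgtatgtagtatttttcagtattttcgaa
mRpS2: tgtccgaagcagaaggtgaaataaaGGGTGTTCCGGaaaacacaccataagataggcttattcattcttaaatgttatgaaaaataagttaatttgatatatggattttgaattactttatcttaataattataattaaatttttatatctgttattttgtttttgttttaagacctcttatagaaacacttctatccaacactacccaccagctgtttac

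Of the 4 large-subunit genes with a thresholded peak, mRpL23, mRpL4 and mRpL2 are taken first. mRpL23 (FBgn0035335, chr3L:2372844-2373704, minus strand) encodes the counterpart of bacterial L23, at the mouth of the exit tunnel. It scored 132 in replicate 1, 79.0 in replicate 2 and 216 in the pooled list, and its summit lay 66 bp inside the gene from its nearest TSS, in an untranslated exon. It was the only thresholded member with the summit in its own transcribed sequence, and the start of its neighbour CG9004 is 24 bp from its most upstream TSS. mRpL4 (FBgn0001995, chr2L:16328059-16329132, minus strand), the counterpart of the tunnel protein L4, scored 51.0, 31.9 and 82.1 in the same order. Its summit lay 155 bp upstream of its own TSS and 638 bp from that of CG4440. mRpL2 (FBgn0036135, chr3L:11120847-11122041, plus strand), the counterpart of L2 near the peptidyl transferase centre, had the lowest thresholded score, with 34.3, 47.6 and, in the pooled list, 78.7. Its summit lay 328 bp upstream in an intron of the neighbour FoxK, a forkhead transcription factor gene, and 108 bp from a FoxK start. The lowest score in the whole thresholded list was 78, so mRpL2 was close to the limit. The summits of the replicates lay 108 bp apart at mRpL2, 12 bp apart at mRpL23 and 30 bp apart at mRpL4. The stretch below holds 201 bases around the mRpL4 summit, chr2L:16329187-16329387, minus strand, from the same assembly and with the same use of capitals. It is shown as an example of a summit whose nearest TSS was that of the member, as also at mRpL23 and mRpL41.
mRpL4: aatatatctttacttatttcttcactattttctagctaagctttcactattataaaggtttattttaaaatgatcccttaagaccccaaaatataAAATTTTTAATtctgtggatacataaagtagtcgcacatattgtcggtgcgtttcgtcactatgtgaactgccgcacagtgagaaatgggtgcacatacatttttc

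mRpL41 (FBgn0034001, minus strand), which encodes a protein specific to mitochondrial ribosomes, had the second highest score of all members. It lies on 2R, from 15217024 to 15217617. It scored 152 in replicate 1, 151 in replicate 2 and 301.5 in the pooled list, and it ranked 32, 24 and 27 among genes with a region. The replicate summits lay 28 bp apart. The pooled summit lay 114 bp upstream of mRpL41 and 648 bp from the start of its neighbour CG8079. Across the 7 thresholded members the scores fell into a high set and a low set. mRpS23, mRpL41, mRpS10 and mRpL23 had pooled scores from 216 to 442 and shared a −log10 q value of 2.91. mRpS2, mRpL4 and mRpL2 had pooled scores from 78.7 to 90.04, with −log10 q values of 2.56, 2.09 and 2.00. The first 4 were among the 100 highest-scoring genes of the pooled list and of replicate 1, and in replicate 2 the same held for 3 of them, with mRpL23 at rank 113. Of the 662 protein-coding genes with a thresholded peak, 4 of the 7 members were in the top 67. The median score of the 7 was 216, that of mRpL23, beside 111 for the other genes with a thresholded peak. This direction depended on the genes compared. Among the 5 members with 1 TSS the median was 90, beside 107 in other genes with 1 TSS and a neighbour transcribed the other way.

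Below the threshold the highest members were mRpL34, mRpL24 and mRpL18, with pooled scores of 64.1, 59.4 and 53.8. mRpL34, the counterpart of bacterial L34, had 33.9 in replicate 2 and no region in replicate 1. Its summit lay in the 384 bp between it and Dg, which encodes dystroglycan. mRpL24, the counterpart of bacterial L24, scored 36.1 in replicate 1 and 18.3 in replicate 2, with summits 13 bp apart, 147 bp upstream of its start in the pooled list. mRpL18, the counterpart of bacterial L18, had 32.1 in replicate 2 and none in replicate 1, and its start is 20 bp from that of Taz, the gene of the cardiolipin-remodelling enzyme tafazzin. The remaining 18 members with a pooled region had scores from 28.4 to 52.0. Over the 28 members with a pooled region the median score was 40.9, beside 39 in the other genes with one. By the nearest pooled summit, the last members inside the 1000 bp window were mRpL33 at 553 bp and mRpL48 at 705 bp, and the first outside were mRpL9, mRpL30 and mRpS34 at 1002, 1007 and 1043 bp.

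**Figure D2:**
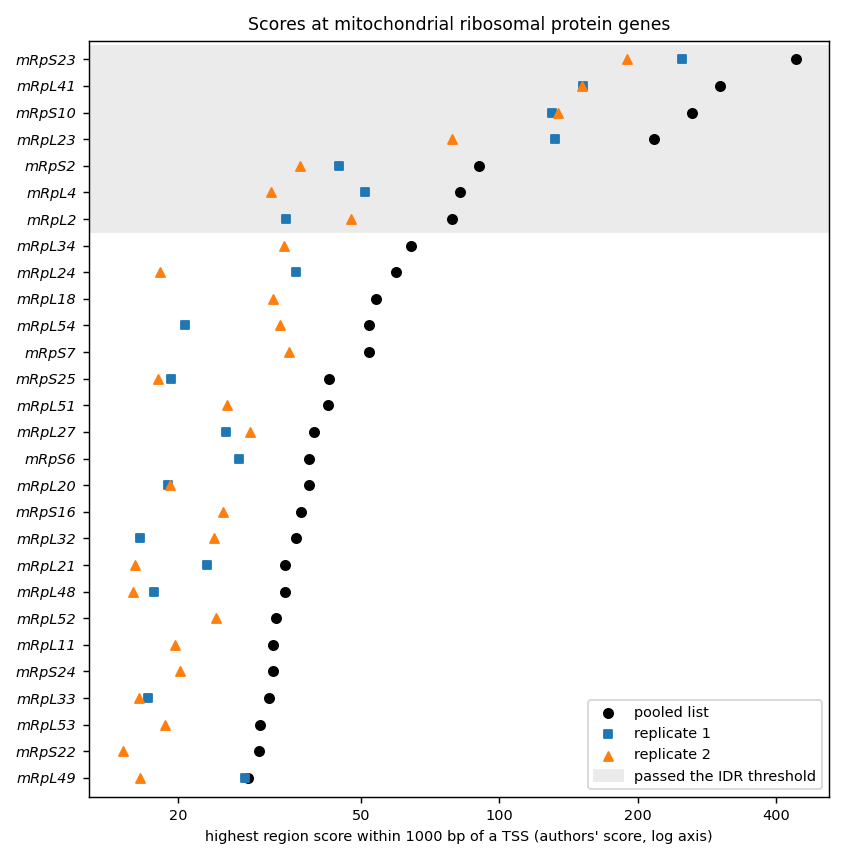
Highest region score within 1000 bp of a TSS (the authors' score, log axis) for the 28 mitochondrial ribosomal protein genes with a pooled region, in order of pooled score; circles are the pooled list, squares replicate 1 and triangles replicate 2, and a missing symbol means no region. The 7 thresholded genes, shaded, have a region in both replicates, and their pooled scores run from 78.7 to 442.

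The replicates listed regions at partly different members. A region in both lay at 22 members, or 30.1%, beside 28.4% of the other genes. Replicate 1 alone had one at 6 of the 73 members and replicate 2 alone at 22. Of the 13895 other genes, replicate 1 alone had one at 2218 and replicate 2 alone at 3428. At 13 members, or 17.8%, the best summits of both replicates lay within 200 bp of each other, beside 15.2% of the other genes. Across the 22 members the Spearman correlation of the replicate scores was 0.767, and across 3947 other genes with a region in both it was 0.527. These are descriptions across genes, and the high value for the members includes the 4 highest peaks. Gene ranks diverged most at mRpL24 and mRpL54. Their rank ratios between replicates were 4.37 and 3.93, followed by mRpL49 with 2.76, mRpL32 with 2.66 and mRpL2 with 2.39. mRpL54, which encodes a mitochondria-specific protein, scored 20.7 in replicate 1 and 33.2 in replicate 2, but the best summits lay 937 bp apart, so they are different regions. At mRpL49, also mitochondria-specific, scores were 27.9 and 16.5 and the best summits lay 1328 bp apart. The pooled summit of mRpL49 lay in its coding exon. When the 768 highest regions of 1 replicate were taken in place of the thresholded list, replicate 1 gave 6 members (8.22%, beside 4.54% of other genes), all of the 7 but mRpL2. Replicate 2 gave 5 (6.85%, beside 4.78%). The 4 shared by both were mRpS23, mRpL41, mRpS10 and mRpL23.

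Most mitochondrial ribosomal protein genes share their upstream interval with a gene transcribed in the opposite direction, and the thresholded peaks lay at such genes. A divergent neighbour, a protein-coding gene on the other strand whose TSS lies within 1000 bp upstream, was present at 58 of 73 members, or 79.5%, beside 34.9% of the other genes. By subunit there were 37 of 47 large-subunit genes (78.7%) and 21 of 26 small-subunit genes (80.8%). The interval between paired starts ran from 20 to 793 bp with a median of 283 bp, beside 300 bp in other divergent genes. The genes themselves had a median length of 909 bp, beside 2178 bp. A single annotated TSS was present at 91.8% of members and 73.4% of other genes, and genes with several TSSs have more sequence within the window. All 7 members with a thresholded peak had a divergent neighbour, which made 7 of 58, or 12.1% (95% Wilson interval 5.97 to 22.9%). Of the other genes with such a neighbour 8.57% had a thresholded peak, within that interval. None of the 15 members without a neighbour had one, beside 2.64% of the other genes without one. A count of 0 of 15 allows a share of up to 20%, by 3 counts. A pooled region lay at 27 of 58 divergent members (46.6%, beside 43.7% of other divergent genes). Without a neighbour it lay at 1 of 15 members (6.67%, beside 34.8%), and that 1 was mRpL49. In replicate 1 a region lay at 3 of these 15 (20%, beside 44.9%). In replicate 2 it lay at 6 (40%, beside 48.2%), so the difference was smaller there.

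The summits at the members lay mostly upstream. In the pooled list the median distance to the nearest TSS of the gene was 188 bp, beside 319 bp in other genes with a region, 216 bp in other divergent genes and 178 bp in cytosolic ribosomal protein genes. The summit was upstream at 22 of 28 members (78.6%), beside 61.5% of other genes, 71.7% of other divergent genes and 82.1% of cytosolic ribosomal protein genes. It was within 200 bp at 17 members (60.7%), beside 36.2%, 47% and 51.3% in the same groups. In replicate 1 the upstream share was 78.6% of members and 54.5% of other genes, and in replicate 2 it was 61.4% and 61%. The excess over other genes was thus not seen in replicate 2. Among other divergent genes with 1 TSS the upstream share was 76.2% in the pooled list, near that of the members. In replicate 1 it was 67.3%, and in replicate 2 it was 70.1%, above that of the members. Within 200 bp in the pooled list lay 45.1% of their summits. The summit lay between the paired starts at 18 of 27 divergent members in the pooled list (66.7%, beside 51.2% in other divergent genes). This share was 56% beside 42.6% in replicate 1 and 42.1% beside 43.3% in replicate 2. For the other divergent genes the summit was placed by the nearest start of the gene. At genes with several TSSs, a summit upstream of an internal start can thus be counted as between the paired starts. Their shares are upper limits, and the direction in replicate 2 is not settled. A single TSS was present at 70.1% of these genes and at 91.4% of the divergent members. Which gene of the pair was nearer to the summit differed between the lists. In the pooled list the nearest TSS belonged to the member at 7 of 27 divergent members (25.9%), beside 56.3% of other divergent genes and 48% of other divergent genes with 1 TSS. In replicate 1 the shares were 36%, 58.4% and 50.6%, and in replicate 2 they were 47.4%, 55.3% and 48.3%. In the thresholded list they were 42.9%, 52.2% and 38.1%, so beside divergent genes with 1 TSS the direction turned. Among the 7 thresholded members it belonged to mRpL41, mRpL23 and mRpL4 and otherwise to the neighbour. With each region given only to the nearest start, 3 members (4.11%) kept a thresholded peak, beside 3.15% of the other genes, and 10 (13.7%, beside 30.5%) a pooled region. A peak in a shared interval cannot be assigned to one gene of the pair from its position, and the expression of neither gene was measured here. Of the 28 pooled regions, 24 are 380 bp wide with the summit within 1 bp of the middle. Among the 7 thresholded peaks this holds for 3, at mRpS2, mRpL4 and mRpL2. The capitals printed at mRpS2 and mRpL4 thus mark the middle of a region. Such a summit adds no position to that of its region.

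**Figure D3:**
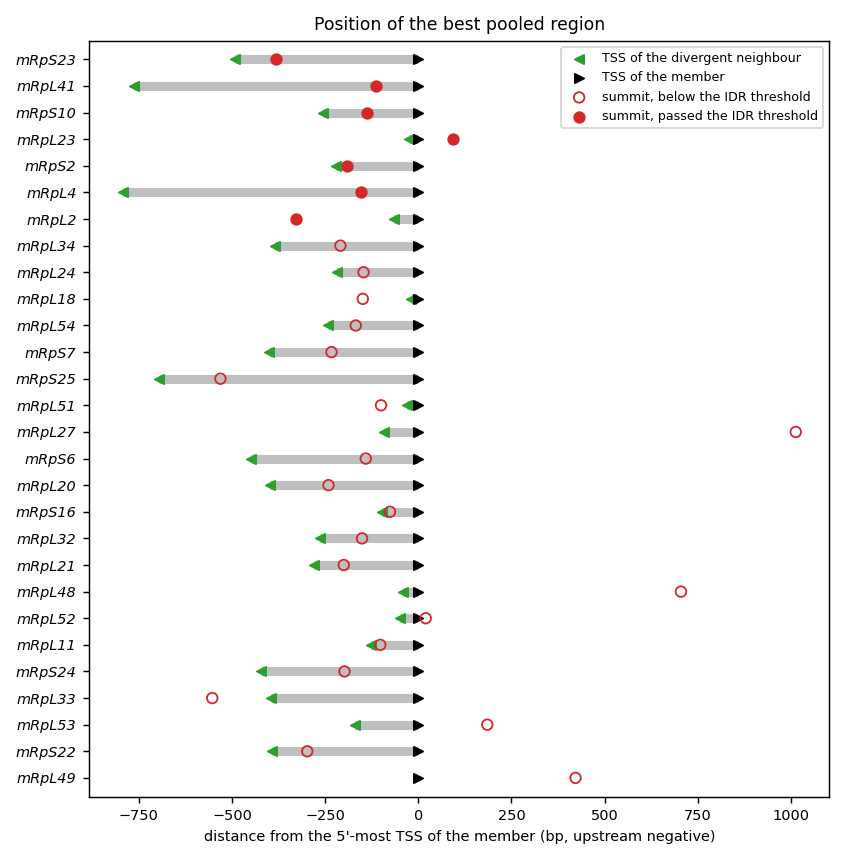
Position of the best pooled summit, in bp from the most upstream TSS of each of the 28 mitochondrial ribosomal protein genes with a pooled region (upstream negative), with the TSS of the divergent neighbour as a green triangle and the interval between both starts as a grey bar; filled circles passed the IDR threshold. At 18 genes the summit lies on the grey bar, and mRpL49 has no divergent neighbour.

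At 23 members, or 31.5%, no region lay within 1000 bp in the pooled list or in either replicate, beside 30.3% of the other genes. They were 12 of 47 large-subunit genes (25.5%) and 11 of 26 small-subunit genes (42.3%). Taken in the order of their symbols, the first were mRpL1, mRpL12, mRpL15, mRpL16 and mRpL22. mRpL1 and mRpL12 encode counterparts of the proteins of the ribosomal stalks, and mRpL22 that of a protein lining the exit tunnel. The nearest pooled summit lay 4398 bp from mRpL1, 1661 bp from mRpL12, 1832 bp from mRpL15, 2915 bp from mRpL16 and 1513 bp from mRpL22. Of these 5, mRpL12 alone had no divergent neighbour.

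Other gene groups of mitochondrial gene expression and of ribosomes are given for comparison, with counts only. Of 93 cytosolic ribosomal protein genes, 5 (5.38%) had a thresholded peak, at scores from 79.1 at RpS29 to 160 at RpS19b. None of 15 mitochondrial aminoacyl-tRNA synthetase genes had one, which allows a share of up to 20%. For mitochondrial translation, transcription and RNA factors, 20 of 24 listed symbols matched a gene, so the group is incomplete, and 1 of the 20 had one. It was PNPase, a mitochondrial polynucleotide phosphorylase, with a score of 395 and its summit 84 bp upstream. Of 87 nuclear oxidative phosphorylation subunit genes, 2 (2.3%) had one, ND-42 at 109 and ND-ASHI at 106, both subunits of complex I. In the pooled list the shares were 41.9%, 40%, 40% and 31% in the same order. A divergent neighbour was present at 60.2%, 46.7%, 50% and 47.1% of these groups. The thresholded peaks at RpS20, RpS19b, RpL32 and ND-42 had their nearest TSS at another gene. At RpS19b the summit lay 867 bp from its own TSS.

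Sequence motifs were counted from 250 bp before to 50 bp after the most upstream TSS, on both strands. The NBRE, spelled AAAGGTCA, was found at none of the 73 members. It was at 0.666% of all protein-coding genes and at 0.604% of the 662 genes with a thresholded peak. A count of 0 of 73 allows a share of up to 4.11%. Its shorter core AGGTCA, which the NBRE contains, was found at 1 member, mRpL14 (1.37%), and that gene has no pooled region. This core was at 5.88% of all genes and at 4.08% of the genes with a thresholded peak. The DNA replication-related element TATCGATA, bound by DREF, was found at 15 members (20.5%, beside 9.36% of all genes and 16.1% of other divergent genes). It was at 40% of the mitochondrial factor genes and 30.1% of the cytosolic ribosomal protein genes, above the members. The oxidative phosphorylation genes held this element at 10.3% and the mitochondrial synthetase genes at 6.67%. Of the thresholded members, mRpL4 and mRpS23 held it, but not in the 201 bases printed around their summits. The summits of mRpS23 and mRpL2, 381 and 328 bp upstream, lie outside the window in which motifs were counted. GGTCACAC, the motif of M1BP, was found at 8 members (11%), above the 7.69% of all genes and below the 13.6% of other divergent genes. GAGAG, bound by the GAGA factor, was found at 12 (16.4%, beside 29.7% and 23.1%). It was at 17.2% of cytosolic ribosomal protein, 13.3% of mitochondrial synthetase, 20% of mitochondrial factor and 23% of oxidative phosphorylation genes. The E-box CACGTG was found at 5 members (6.85%, beside 4.2% and 4.8%). No match here shows binding, and a missing match says only that these letters are not in the window.

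The E-box CAGCTG, the only one of the 7 motifs found at more than 50 percent of members, was at 40 of 73, or 54.8%, beside 17.6% of all genes and 21.5% of other divergent genes. It was at 27 large-subunit genes (57.4%) and 13 small-subunit genes (50%). Members without a divergent neighbour held it at 60%. Among the comparison groups it was at 46.7% of the mitochondrial synthetase genes, 45% of the mitochondrial factor genes, 24.1% of the oxidative phosphorylation genes and 9.68% of the cytosolic ribosomal protein genes. The 45 matches at members had a median position 5 bp after the TSS, and 39 of them (86.7%) lay within 100 bp of it. In other genes 66.4% of the matches did, and the median was 49 bp before the TSS. The motif was found at members with and without regions. It was at 4 of the 7 thresholded members, mRpL2, mRpL23, mRpL41 and mRpS2, and at 18 of 28 members with a pooled region (64.3%). Of all 662 genes with a thresholded peak, 29.2% held it. It was at 22 of the 45 members with no pooled region (48.9%) and at 10 of the 23 with none in the pooled or replicate lists (43.5%).

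**Figure D4:**
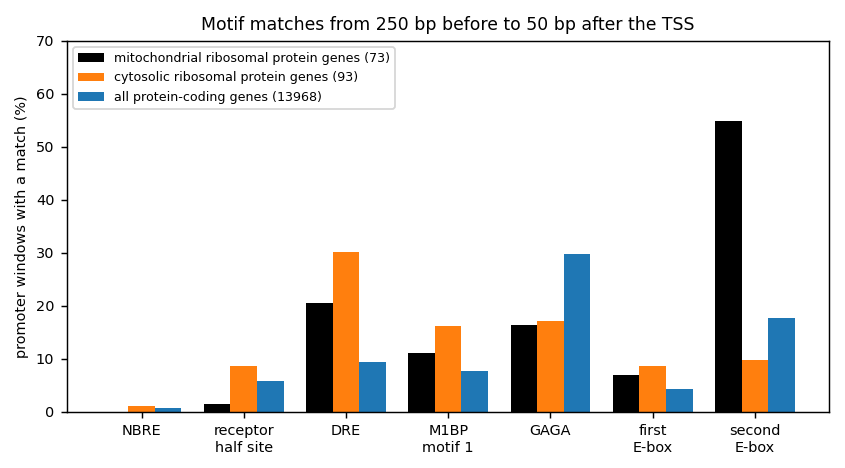
Share of promoter windows, in percent, with a match to each of 7 motifs for the 73 mitochondrial ribosomal protein genes, 93 cytosolic ribosomal protein genes and all 13968 protein-coding genes; the first E-box is CACGTG and the second is CAGCTG. The second E-box is at 54.8% of the mitochondrial, 9.68% of the cytosolic ribosomal protein genes and 17.6% of all genes.

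A pair of promoters shows these motifs at genes of low and no score. mRpL32, the counterpart of bacterial L32, lies 264 bp from qless, a gene of coenzyme Q synthesis. Its score was 36.1 (pooled), 16.5 (replicate 1) and 23.96 (replicate 2), with the pooled value below the thresholded list. mRpL16, the counterpart of bacterial L16, lies 306 bp from trr, which encodes a histone methyltransferase, and had no region in any list. The stretches are chr3R:31252609-31252871 and chrX:1890006-1890255, both on the plus strand, from the RefSeq release 6 assembly, and both end at the base before the start of the member. Capitals mark motif matches. They are CAGCTG at positions 3, 16 and 248 and TATCGATA at position 237 in the first, and CACGTG at 135 and TATCGATA at 219 in the second, counted from 1 at the 5′ end. The CAGCTG at position 3 lies more than 250 bp before the start, outside the window used for the counts. Within that window no member had more than 2 CAGCTG matches. In the mRpS2 interval printed above, cagctg stands at position 211, and the summit is at position 31.
mRpL32: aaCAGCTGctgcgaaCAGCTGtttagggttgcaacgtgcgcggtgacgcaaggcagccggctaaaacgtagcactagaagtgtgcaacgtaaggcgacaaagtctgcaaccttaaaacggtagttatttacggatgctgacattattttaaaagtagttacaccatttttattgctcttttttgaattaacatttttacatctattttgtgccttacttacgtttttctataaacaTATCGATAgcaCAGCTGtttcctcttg
mRpL16: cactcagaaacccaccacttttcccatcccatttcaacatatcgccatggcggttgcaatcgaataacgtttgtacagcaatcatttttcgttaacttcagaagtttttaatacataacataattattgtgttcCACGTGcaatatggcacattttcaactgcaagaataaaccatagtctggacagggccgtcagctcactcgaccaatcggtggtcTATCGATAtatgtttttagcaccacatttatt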

How the data were processed

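ChIP-seq regions of 2 biological replicates of 1 group were analysed. According to the deposited text lists, the authors called the regions of each replicate against a control, made the pooled list from both replicates, and thresholded by IDR. The sources used here name no aligner, caller, version or IDR cutoff. The score (signal value) and the −log10 q value of each region are the authors' own, as deposited in narrowPeak columns. They hold no read counts, so depth is unknown. Lists on dm3 were not used here. Of the dm6 lists, regions on chromosomes X, Y and 4 and the arms of 2 and 3 were kept. Every column of values used was mapped to a sample or to the pooled lists.

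TSSs came from the Ensembl annotation of release 115. All 73 members had the same start and end in the RefSeq gene table. A gene took its highest-scoring region with the summit within 1000 bp of a TSS. Ranks are among all protein-coding genes with a region. With 1 group, no test was made: shares, medians and ranks are set beside those of the other protein-coding genes, with 95% Wilson intervals. Counts of 0 carry the upper limit set by 3 counts. Named are all members with a thresholded peak, the 10 highest in the pooled list, the first 5 by symbol with no region and the 5 with the largest rank ratio between replicates. Other members were named after their values were seen. The members and lists were chosen with earlier results of these data known. Alternatives changed the window, the assignment of regions, the list and the comparison genes. Python 3.11.15, numpy 2.4.6, pandas 2.3.3, scipy 1.17.1 and matplotlib 3.10.9 were used.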

Additional observations from a re-analysis of the deposited data

How the results depend on the processing

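Nearest-start assignment left 3 thresholded members (4.11%, beside 3.15% of other genes), 10 pooled (13.7%, beside 30.5%), 13 in replicate 1 (17.8%, beside 37.1%) and 27 in replicate 2 (37%, beside 43.9%), with a median pooled score of 33.4 and a median distance of 148 bp. The higher-scoring 50% of each list left 4 thresholded members (5.48%, beside 2.66%) and 15 in replicate 1 (20.5%, beside 28.1%). A 2000 bp window gave 49 members in replicate 1 (67.1%, beside 64.9%), a median score of 39.5 and a median distance of 542 bp. A 500 bp window gave medians of 42.3 and 155 bp, and counting any base of a region gave a median score of 39.6. Leaving out a replicate gave 5 to 6 thresholded members, median scores from 19.4 to 21 and median distances from 238 to 270 bp. Scores of the replicate lists are on a lower range than those of the pooled list. Requiring the neighbour within 250 bp left 25 divergent members (34.2%, beside 13.5%). Among other genes with a divergent neighbour the shares were 8.57, 43.7, 43.4 and 62.2% in the thresholded, pooled, replicate 1 and replicate 2 lists, and among all other genes with 1 TSS 3.19, 32.1, 39.7 and 46.4%. A count was taken to hold within 1.5 times, a median within the SD of both replicate medians and a share of other genes within its Wilson interval. By these limits 22 values held and 27 moved. Some of these moves follow from the setting itself. Replicate scores are on a lower range, and a wider window admits more distant summits. The tally is therefore no measure of robustness. No paired analysis was possible because there is 1 group. Whether the thresholded share of the members differs from that of other genes with divergent neighbours was not tested, and its interval holds their share. The pooled and thresholded lists come from the same 2 libraries and are no further replicates.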

Other observations

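Some members lie near each other in the genome. The starts of mRpS2 and mRpL24 are 94942 bp apart, those of mRpL24 and mRpL28 are 28615 bp apart and those of mRpL3 and mRpS30 are 24799 bp apart. Each of the 7 thresholded members had its own peak. The promoter windows of the members had a median GC content of 34.7%, beside 38% over all protein-coding genes, and the 7 thresholded members had the same median of 34.7%. The median was 36.3% in other divergent genes and in cytosolic ribosomal protein genes. In the oxidative phosphorylation, mitochondrial factor and mitochondrial synthetase genes it was 34%, 34.2% and 33.3%, so a low GC content was not particular to the members.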
